A study of Homo sapiens with 6 samples.

Results

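IRE1 and ATF6 are 2 of the 3 sensors of protein folding in the membrane of the endoplasmic reticulum (ER), and the account below covers the mRNA of 10 genes of these arms, chosen by name for their function among 11048 gene symbols measured. The genes are ERN1, which encodes IRE1, its substrate XBP1, the sensors ATF6 and ATF6B, the proteases MBTPS1 and MBTPS2, the related membrane-bound transcription factors CREB3 and CREB3L2, and the ER membrane proteins WFS1 and TMEM33. All 10 had a value in every library. The cells were MM1.S, a human multiple myeloma cell line and thus 1 line of malignant plasma cells, grown in RPMI-1640 with fetal bovine serum. They received for 6 h the vehicle DMSO, 3 µM CCF642 or 3 µM CCF642-34, an analogue of CCF642, both described by the study as inhibitors of the protein disulfide isomerase PDIA1. There were 2 libraries of polyA RNA per group, 6 in all, and the labels do not say whether the libraries of a group came from separate cultures. The p-values thus rest only on the spread between these libraries, taken largely from all genes together, and that spread may be technical.

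When unfolded proteins gather in the ER lumen, IRE1 forms clusters and its cytosolic nuclease cuts a short intron out of XBP1 mRNA, and the spliced message encodes the transcription factor XBP1s. ATF6 instead travels to the Golgi, where the site-1 protease (MBTPS1) and then the site-2 protease (MBTPS2) cut it and free a bZIP transcription factor that enters the nucleus. CREB3 and CREB3L2 are bZIP factors held in the membrane and freed by the same kind of cleavage. Plasma cells depend on the IRE1 and XBP1 arm for antibody secretion.

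Most of this regulation takes place after transcription. The intron that IRE1 removes is shown first because the gene-level values counted here cannot tell spliced from unspliced XBP1. In the GRCh38 annotation of GENCODE 29 it was found by searching XBP1 transcripts for a pair of stem loops of the kind IRE1 cuts. A first, looser loop pattern matched 2 places, and the pattern was then narrowed to 1. The 26 bases, in capitals, lie on the minus strand at chr22:28796127-28796152 and are present in 4 of the 7 annotated XBP1 transcripts, in exon 4 of 3 coding ones and in exon 1 of a transcript with a retained intron. They are printed with flanks, spanning chr22:28796115-28796164.
XBP1 intron removed by IRE1: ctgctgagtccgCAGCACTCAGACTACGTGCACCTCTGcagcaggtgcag

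RefSeq promoters (GRCh38.p14, 250 bases before to 50 after a start) were at hand for all 10 genes, 12 promoters in all. The ER stress element, CCAAT and CCACG with 9 bases of any kind between them and the motif through which ATF6 acts together with NF-Y, was searched on both strands, as were 4 other motifs kept from a longer set looked at, a choice made after the data were seen. It occurred in 27 of 35116 promoters (0.0769%), and XBP1 was the only one of the 10 genes that had it. The XBP1 stretch, at chr22:28800588-28800636 on the minus strand, is shown with the ends of the motif in capitals. The motif begins at position −52 from the start.
XBP1 promoter: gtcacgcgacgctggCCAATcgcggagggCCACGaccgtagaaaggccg
The cAMP response element TGACGTCA, a palindrome counted once, occurred in 1.85% of promoters and, of the 10 genes, in that of CREB3L2, at position −179. It is in capitals in the stretch chr7:138002243-138002280, minus strand.
CREB3L2 promoter: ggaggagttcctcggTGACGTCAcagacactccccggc
TGACGTGG, bound by ATF6 and XBP1s, occurred in 0.729% of promoters and in none of the 12. CCAAT, which overlaps the ER stress element, occurred in 34.6% of all promoters and in 5 of the 12, and CCACG in 38.1% and in 6 of the 12. A match describes letters and not a bound site.

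Between 20567313 and 28459677 reads per library lay behind the values. Expression is given as deposited CPM, the reads on a gene scaled to a common library total. Changes were estimated with limma on log2 of CPM scaled by TMM, a factor that makes most genes equal between libraries, plus 1, and this scale understates the changes of low genes. The TMM factors were between 1.052 and 1.054 with DMSO, between 0.9568 and 0.9624 with CCF642 and between 0.9874 and 0.9918 with CCF642-34, so a compound's scaled values are raised relative to the deposited CPM. Both compounds were compared with the same DMSO libraries. All 8 plasma cell markers were measured, with sums between 7963 and 8016 CPM with DMSO, 5194 and 5239 CPM with CCF642 and 6070 and 6100 CPM with CCF642-34. Of these, 3 rose and 5 fell with CCF642, and 2 rose and 5 fell with CCF642-34. JCHAIN, the joining chain of secreted antibodies, fell by 1.10 on the log2 scale with CCF642 and by 0.79 with CCF642-34 (limma adjusted p = 2.62e-31 and 3.54e-25). Its mean went from 4318 CPM to 1833 CPM after CCF642 and to 2348 CPM after CCF642-34, a fall close in size to that of the sums. SDC1 had the largest log2 fall of the 8 markers, −1.67 and −1.12 (limma adjusted p = 2.25e-35 and 5.91e-28). Its mean went from 860 CPM to 245 CPM with CCF642 and to 371 CPM with CCF642-34. IRF4, a transcription factor of plasma cells, rose by 0.90 and 1.11 (limma adjusted p = 8.13e-27 and 2.39e-30). In the sums the fall of SDC1 and the rise of IRF4 go opposite ways. No B cell marker of 4 and no myeloid marker of 3 was among the genes analysed here. Of 3 T cell markers CD3E was, at 2.09 to 3.19 CPM, and of 4 erythroid and stromal markers HBB and COL1A1 were, with summed levels of 3.97 to 4.22 CPM with DMSO, 12.7 to 13.1 CPM with CCF642 and 7.13 to 8.38 CPM with CCF642-34. The part of these marker changes in the results below was not tested. In bulk RNA, fewer cells of a type and less RNA per cell cannot be told apart.

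With CCF642, 8 of the 10 genes passed an adjusted p of 0.05, where 63.1% of all genes did. ERN1, CREB3, CREB3L2, MBTPS1, WFS1 and XBP1 rose, against 31.8% of all genes, and ATF6 and MBTPS2 fell, against 31.3%. With CCF642-34, 6 of 10 passed, where 57.6% of all genes did: ERN1, CREB3, CREB3L2 and WFS1 rose (29.7% of all genes) and ATF6 and MBTPS2 fell (27.9%). For either direction together, the share called lay near that of all genes with CCF642-34 and somewhat above it with CCF642. A change of at least 2-fold with an unadjusted p under 0.05, the criterion of the study, was met by ERN1 and CREB3 with each compound, while 6.49% of all genes met it with CCF642 and 3.88% with CCF642-34. The median log2 fold change of the 10 genes was 0.29 with CCF642 and 0.04 with CCF642-34, and that of all genes was −0.01 and 0.01. Scaling by library size alone moved the all-gene medians to −0.13 and −0.08. It also moved the split of calls with CCF642 from 3515 higher and 3459 lower to 2528 and 4738, and with CCF642-34 from 3285 and 3079 to 2497 and 3972.

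**Figure D1:**
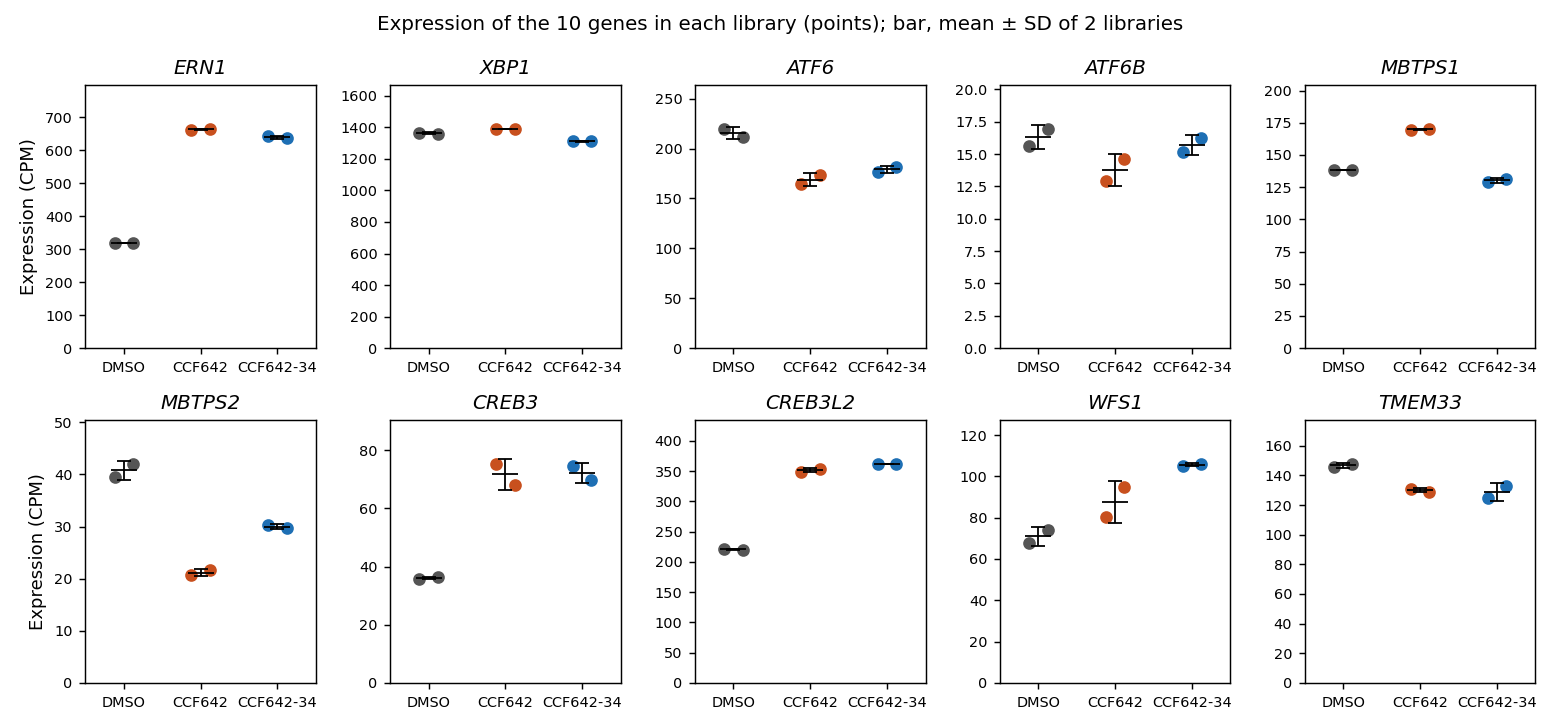
Expression in CPM (vertical axes, each from 0) of the 10 genes in every library. Points are libraries, coloured by group, and bars give the mean ± SD of 2 libraries. ERN1, CREB3 and CREB3L2 stood higher in all 4 compound libraries than in both DMSO libraries, and MBTPS2 stood lowest with CCF642.

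Among the sensors, ERN1 rose more than 2-fold with both compounds. It lies at chr17:64039142-64130819 (GRCh38, minus strand). ERN1 was at 319 and 319 CPM with DMSO, at 661 and 665 CPM with CCF642 and at 643 and 637 CPM with CCF642-34. The compound libraries were about alike and the groups did not overlap with DMSO. The rise was 2.28-fold with CCF642 (95% interval 2.16 to 2.40; log2 fold change 1.19, SE 0.038; limma adjusted p = 1.04e-30) and 2.13-fold with CCF642-34 (interval 2.02 to 2.24; log2 fold change 1.09, SE 0.038; limma adjusted p = 5.46e-29). By size of change ERN1 ranked 446 of 11048 genes with CCF642 and 327 with CCF642-34. EIF2AK3, which encodes PERK, the third sensor, was at 148 and 149 CPM with DMSO, 519 and 511 CPM with CCF642 and 402 and 417 CPM with CCF642-34. It rose 3.78-fold and 2.91-fold (limma adjusted p = 7.03e-38 and 1.04e-33).

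ATF6 went the other way. The gene, at chr1:161766294-161964070 on the plus strand, encodes the sensor that is itself cut into a transcription factor. ATF6 was at 220 and 211 CPM with DMSO, 164 and 173 CPM with CCF642 and 177 and 181 CPM with CCF642-34. Every compound library was below both DMSO libraries. ATF6 fell by 0.22 on the log2 scale with CCF642 (SE 0.047, limma adjusted p = 6.54e-05) and by 0.18 with CCF642-34 (SE 0.047, limma adjusted p = 0.0011). Of the 3 sensors, then, the mRNAs of ERN1 and EIF2AK3 rose more than 2-fold and that of ATF6 fell by a small amount.

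ATF6B encodes a relative of ATF6 that is cleaved in the same way and lies at chr6:32115264-32128253, minus strand. ATF6B was at 15.7 and 17.0 CPM with DMSO, 12.9 and 14.7 CPM with CCF642 and 15.2 and 16.3 CPM with CCF642-34, and its 265 to 452 reads per library were the fewest of the 10 genes. In these deposited values the CCF642 libraries lay below DMSO and those of CCF642-34 overlapped with it, and after TMM scaling both overlapped. The log2 fold changes of −0.11 (95% interval −0.33 to 0.12, limma adjusted p = 0.419) and 0.03 (interval −0.19 to 0.26, limma adjusted p = 0.811) did not pass, and a change of the size seen for ATF6 was not detectable at this depth. Gene models on GRCh38 that share exon bases with ATF6B, TNXB and AL662884.2, were not analysed here.

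XBP1, at chr22:28794555-28800597, was by far the most abundant of the 10 mRNAs and moved little. It was at 1368 and 1358 CPM with DMSO, 1391 and 1389 CPM with CCF642 and 1316 and 1311 CPM with CCF642-34. In these deposited values the CCF642 libraries lay above and the CCF642-34 libraries below the DMSO libraries. After TMM scaling XBP1 rose 1.12-fold with CCF642 (log2 fold change 0.16, SE 0.034, limma adjusted p = 5.61e-05), and the log2 fold change with CCF642-34 was 0.04 (95% interval −0.03 to 0.10, limma adjusted p = 0.376). Scaling by library size alone ended the call with CCF642 (0.03, limma adjusted p = 0.458) and gave −0.05 with CCF642-34. The total XBP1 mRNA counted here holds both forms of the message, so these values say nothing of the spliced share.

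Per kilobase of exon, XBP1 stood far above the other genes. In DMSO libraries the mean level was 450 CPM per kb for XBP1, followed by ERN1 at 29.4, ATF6 at 27.3, CREB3L2 at 25.1, CREB3 at 18.9, TMEM33 at 17.8, WFS1 at 15.7, MBTPS1 at 13.5, MBTPS2 at 4.57 and ATF6B at 4.49 CPM per kb. MBTPS2 and ATF6B differed by less than the spread between their libraries, whose SDs were 0.206 and 0.254 CPM per kb. With CCF642 the level of ERN1 was 61.1, of CREB3L2 40.0, of CREB3 37.7 and of ATF6 21.4 CPM per kb, so that ATF6 stood 5th in place of 3rd. CREB3L2 and CREB3 lay within the spread of CREB3 (SD 2.79), as did ATF6 and WFS1 (19.4 CPM per kb) within that of WFS1 (SD 2.26). With CCF642-34, ATF6 (22.7 CPM per kb) stood 6th behind WFS1 (23.4 CPM per kb). Lengths were those of all exons joined in GENCODE 29, and the transcripts in use may be shorter.

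The paired proteases parted. MBTPS1 encodes the site-1 protease, a serine protease of the Golgi that makes the first cut in ATF6 and in the sterol-regulated factors, and lies at chr16:84053761-84116906, minus strand. MBTPS1 was at 138 and 138 CPM with DMSO, 169 and 170 CPM with CCF642 and 129 and 132 CPM with CCF642-34. Only the CCF642 libraries were above DMSO. It rose 1.34-fold with CCF642 (log2 fold change 0.43, SE 0.048, limma adjusted p = 9.69e-11), and its log2 fold change with CCF642-34 was 0.00 with a 95% interval from −0.09 to 0.10 (limma adjusted p = 0.945).

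MBTPS2 encodes the site-2 protease, a metalloprotease that makes the second cut within the membrane, and lies at chrX:21839636-21885424, plus strand. MBTPS2 was at 39.5 and 42.1 CPM with DMSO, 20.7 and 21.6 CPM with CCF642 and 30.3 and 29.7 CPM with CCF642-34. The groups did not overlap, with CCF642 lowest and CCF642-34 between it and DMSO. MBTPS2 fell to 0.580 of its DMSO level with CCF642 (log2 fold change −0.79, SE 0.084, limma adjusted p = 2.13e-11) and to 0.788 with CCF642-34 (log2 fold change −0.34, SE 0.084, limma adjusted p = 0.000465). On GRCh38 it shares 1093 exon bases on the same strand with YY2, a gene inside it, so reads could be split between them. YY2 had log2 fold changes of −0.73 with CCF642 and −0.32 with CCF642-34 (limma adjusted p = 2.81e-05 and 0.0626).

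Within a library, the ratio of MBTPS2 to MBTPS1 does not depend on the scaling between libraries. It was 0.286 and 0.304 with DMSO, 0.122 and 0.127 with CCF642 and 0.235 and 0.225 with CCF642-34. The libraries of the 3 groups did not overlap, and the ratio was lowest with CCF642. The ratio of ERN1 to XBP1 was 0.234 and 0.235 with DMSO, 0.475 and 0.479 with CCF642 and 0.489 and 0.485 with CCF642-34, so both compounds placed it at a similar value about double that with DMSO. The ratio of ATF6B to ATF6 was 0.0713 and 0.0803 with DMSO, 0.0786 and 0.0846 with CCF642 and 0.0859 and 0.0897 with CCF642-34, and here the CCF642 libraries overlapped with DMSO. These ratios are of CPM, not of levels per length, and were not tested.

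**Figure D2:**
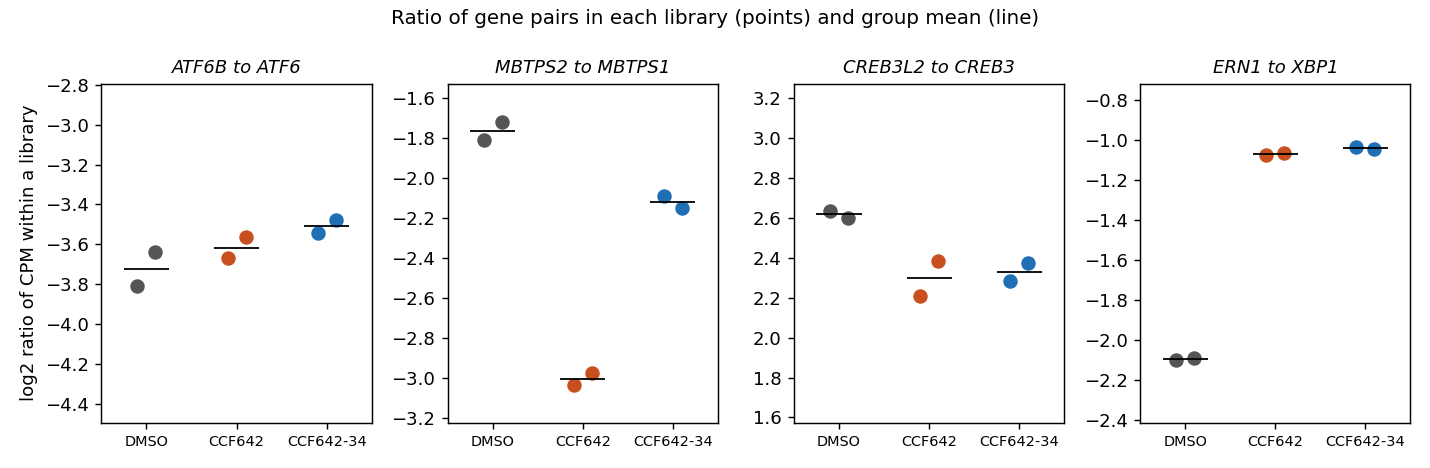
Log2 ratio of CPM of 4 gene pairs within each library (vertical axes, all spanning the same range). Points are libraries and lines are group means. The MBTPS2 to MBTPS1 ratio is lowest with CCF642, at a mean of −3.005 against −1.762 with DMSO, and the ERN1 to XBP1 ratio is raised alike by both compounds.

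Among the membrane-bound bZIP factors, CREB3 and CREB3L2 rose with both compounds. Their relative CREB3L4, described below, had log2 fold changes of −0.41 and −0.37, and ATF6 also fell. CREB3, also called Luman, is a factor of the ER and Golgi membrane and lies at chr9:35732335-35737004, plus strand. CREB3 was at 35.7 and 36.3 CPM with DMSO, 75.4 and 67.9 CPM with CCF642 and 74.5 and 69.8 CPM with CCF642-34. The compound groups overlapped with each other and both lay above DMSO. It rose 2.15-fold with CCF642 (95% interval 1.96 to 2.36; log2 fold change 1.10, SE 0.067; limma adjusted p = 1.22e-19) and 2.10-fold with CCF642-34 (interval 1.91 to 2.31; log2 fold change 1.07; limma adjusted p = 5.97e-19). Both intervals reach below 2-fold, and scaling by library size alone brought both estimates under it. CREB3 shares 139 exon bases with GBA2 and 61 with TLN1 on the opposite strand, and it is not stated whether counting used strand. GBA2 had log2 fold changes of 0.23 and 0.11 and TLN1 of 0.19 and 0.09.

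CREB3L2, also called BBF2H7, is known for raising components of the secretory pathway in cartilage and lies at chr7:137874979-138002067, minus strand. CREB3L2 was at 222 and 220 CPM with DMSO, 349 and 354 CPM with CCF642 and 363 and 362 CPM with CCF642-34. All compound libraries were above DMSO. It rose 1.74-fold with each compound (log2 fold change 0.80 and 0.80, SE 0.041; limma adjusted p = 1.94e-22 and 3.44e-22). The ratio of CREB3L2 to CREB3 within a library was 6.21 and 6.07 with DMSO, 4.63 and 5.22 with CCF642 and 4.87 and 5.19 with CCF642-34, lower in every compound library.

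WFS1 encodes wolframin, an ER membrane glycoprotein involved in calcium balance and known to bind ATF6. It lies at chr4:6269849-6303265, plus strand. WFS1 was at 67.8 and 74.2 CPM with DMSO, 80.2 and 94.7 CPM with CCF642 and 105 and 106 CPM with CCF642-34. The CCF642 libraries were far apart, and the groups did not overlap. WFS1 rose 1.34-fold with CCF642 (log2 fold change 0.43, SE 0.063, limma adjusted p = 8.1e-08) and 1.58-fold with CCF642-34 (log2 fold change 0.66, SE 0.063, limma adjusted p = 1.1e-12).

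TMEM33, an ER membrane protein reported to bind PERK, lies at chr4:41935120-41960572, plus strand. TMEM33 was at 145 and 148 CPM with DMSO, 131 and 129 CPM with CCF642 and 124 and 133 CPM with CCF642-34. Each compound library was below both DMSO libraries. The log2 fold changes were −0.04 with CCF642 (95% interval −0.14 to 0.06, limma adjusted p = 0.505) and −0.10 with CCF642-34 (interval −0.20 to 0.00, limma adjusted p = 0.0859). Scaling by library size alone made both pass (−0.17 and −0.19, limma adjusted p = 0.0024 and 0.00126). With CCF642-34 the change also passed in a fit of only the 2 groups (−0.10, limma adjusted p = 0.0456) and without CCF642-34 replicate 2 (−0.14, limma adjusted p = 0.0473).

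In deposited CPM the libraries of CCF642 and DMSO did not overlap for 10 of the 10 genes (81.7% of all genes) and those of CCF642-34 and DMSO for 9 (79.3%), ATF6B being the exception. After TMM scaling the counts were 9 (79.4%) and 8 (78.9%).

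The compounds are analogues and were tested at the same dose and time, so CCF642-34 was also compared directly with CCF642, the only pair of compounds. Of the 10 genes 5 passed, where 33.4% of all genes did: MBTPS2 and WFS1 were higher with CCF642-34 (15.9% of all genes) and MBTPS1, XBP1 and ERN1 were lower (17.5%). By the 2-fold criterion 0 of the 10 differed with limma, edgeR or DESeq2, while 0.308% of all genes did with limma. The libraries of the compounds did not overlap for 8 of the 10 in deposited CPM (65.1% of all genes) and for 7 after TMM scaling (63.4%). By library size alone the split of all calls was 2406 higher and 1488 lower in place of 1758 and 1930.

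The proteases differed most between the compounds. With CCF642-34, MBTPS1 was at 0.746 of its CCF642 level (log2 difference −0.42, 95% interval −0.52 to −0.33, limma adjusted p = 9.74e-10). MBTPS2 was 1.36-fold higher (log2 difference 0.44, interval 0.27 to 0.61, limma adjusted p = 4.18e-05). XBP1 was lower by a small amount (log2 difference −0.13, interval −0.19 to −0.06, limma adjusted p = 0.00328).

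WFS1 was 1.17-fold higher with CCF642-34 (log2 difference 0.23, interval 0.11 to 0.36, limma adjusted p = 0.00319), but the call rested on CCF642 replicate 1, without which the difference was 0.11 (limma adjusted p = 0.193). ERN1 was lower by 0.10 on the log2 scale (limma adjusted p = 0.0433), with an interval of the difference from −0.17 to −0.02. That call was lost with library size alone (limma adjusted p = 0.284), with a replicate block (0.0567), in a fit of only the 2 groups (0.0873) and without each library except CCF642 replicate 1, where the adjusted p ran up to 0.196.

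For the other genes the direct difference did not pass. The 95% interval of the log2 difference was −0.17 to 0.10 for CREB3, −0.08 to 0.08 for CREB3L2, −0.05 to 0.14 for ATF6, −0.16 to 0.04 for TMEM33 and −0.08 to 0.36 for ATF6B (limma adjusted p between 0.349 and 0.988). EIF2AK3, for comparison, was lower with CCF642-34 (log2 difference −0.37, limma adjusted p = 3.67e-10).

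**Figure D3:**
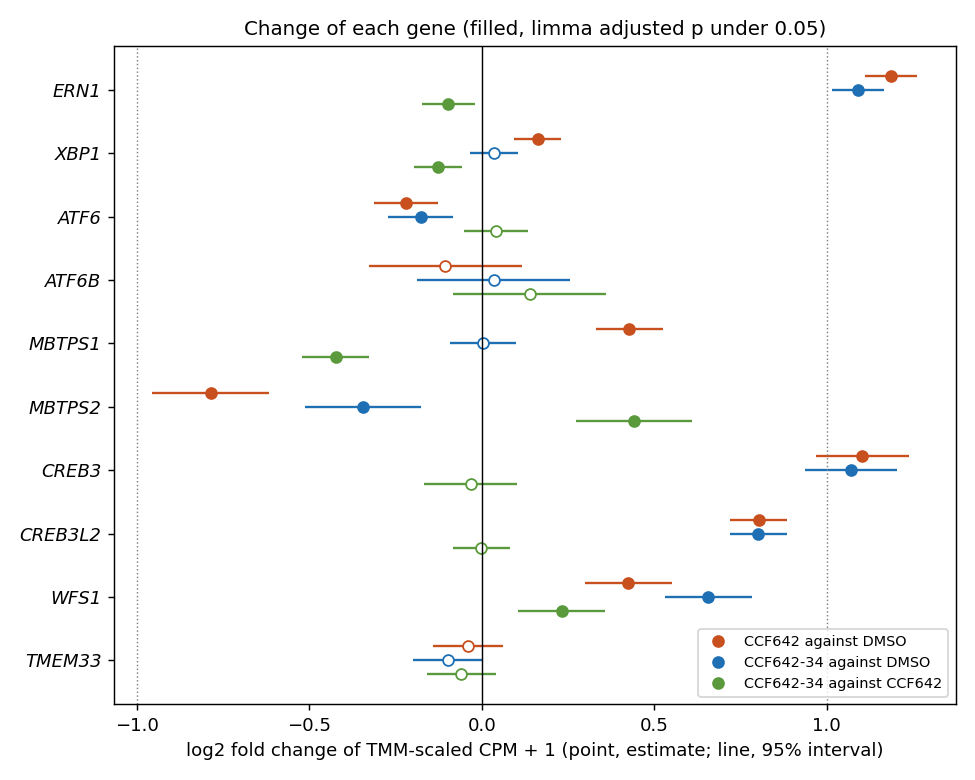
Log2 fold change of TMM-scaled CPM + 1 (horizontal axis) of each gene, with 95% intervals, in 3 comparisons marked by colour. Filled points passed a limma adjusted p of 0.05, and dotted lines mark 2-fold. The compounds lie close together for ERN1, CREB3 and CREB3L2 and apart for MBTPS1 and MBTPS2.

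The genes that act with or downstream of the sensors were described from lists written with earlier results of these data known, so their counts are a description. Over all genes, 31.8% rose and 31.3% fell with CCF642, and 29.7% rose and 27.9% fell with CCF642-34. In the direct comparison 15.9% were higher and 17.5% lower with CCF642-34. Several counts of the lists other than the XBP1s and ATF6 targets lie near these shares and are not results about those genes. The 14 targets of XBP1s serve protein transport into and out of the ER or are co-chaperones and a degradation factor of the ER. Of these 14, 13 rose with CCF642 and 13 with CCF642-34, and 0 fell by limma (0 also at an unadjusted p under 0.05), edgeR or DESeq2. Library size alone left 10 higher and 1 lower with CCF642, as SSR1, SSR3 and TRAM1 no longer passed (limma adjusted p = 0.277, 0.693 and 0.0571) and SEC61B, a subunit of the protein channel, was lower (−0.19, limma adjusted p = 0.00401). SEC61B was also lower on leaving out CCF642 replicate 1 (−0.20, limma adjusted p = 0.000724), and SSR3 did not pass without DMSO replicate 2 (0.0683). The list medians were 0.44 and 0.52 (log2), beside −0.01 and 0.01 over all genes. DNAJB9, a co-chaperone that also binds IRE1, went from a mean of 181 ± 7.34 CPM (SD, n = 2) with DMSO to 614 ± 25.8 CPM with CCF642, log2 fold changes of 1.89 and 1.84 with the 2 compounds (limma adjusted p = 1.43e-37 and 9.34e-37). SEC24D, a coat protein of vesicles leaving the ER, rose by 1.57 and 1.51 (limma adjusted p = 3.22e-34 and 3.13e-33). In the direct comparison 5 of the 14 passed with more RNA after CCF642-34 and 1 with less, but only 2 in all without CCF642-34 replicate 2.

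Of 10 ATF6 targets, the chaperones and degradation factors of the ER, 8 rose with CCF642 and 9 with CCF642-34, with medians of 0.50 and 0.47. By limma, edgeR or DESeq2 0 fell, and 1 was lower with CCF642 at an unadjusted p under 0.05 (the chaperone CALR, at −0.07 on the log2 scale with a limma adjusted p of 0.0758). CALR passed as lower on leaving out CCF642 replicate 1 (−0.10, limma adjusted p = 0.00549) and with a crossed replicate block (0.0355). With library size alone 2 were lower with CCF642, CALR (−0.20, limma adjusted p = 1.41e-06) and the disulfide isomerase PDIA4 (−0.19, limma adjusted p = 1.42e-05), and CALR was no longer among those that rose with CCF642-34 (0.887). That rise was also lost without either DMSO replicate (0.121 and 0.12) or CCF642-34 replicate 1 (0.141). HERPUD1, part of the machinery that removes misfolded ER proteins, rose by 1.70 and 1.17 on the log2 scale, and its direct log2 difference, CCF642-34 against CCF642, was −0.53 (limma adjusted p = 5.61e-18). HSPA5, the ER chaperone BiP, which holds all 3 sensors inactive in unstressed cells, rose by 1.26 and 0.89 and its direct difference was −0.36 (limma adjusted p = 3.26e-12). In the direct comparison 2 of the 10 had more RNA after CCF642-34 and 4 had less. These targets also answer to other factors, and the lists do not separate the arms.

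**Figure D4:**
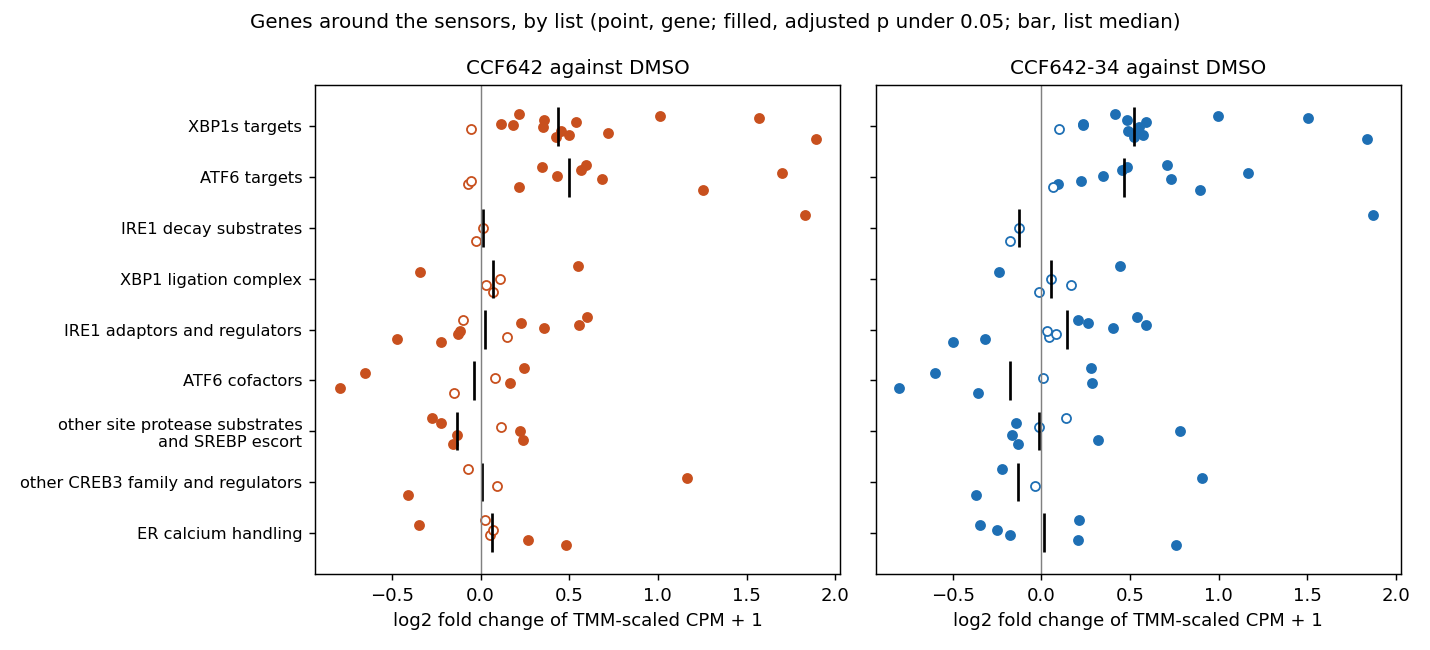
Log2 fold change (horizontal axis) of each gene of 9 lists around the sensors, with CCF642 (left) and CCF642-34 (right) against DMSO. Points are genes, filled where the limma adjusted p was under 0.05, and bars are list medians. XBP1s and ATF6 targets lie mostly to the right of 0, with medians between 0.44 and 0.52, and the genes of the other lists lie on both sides.

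IRE1 also degrades some ER mRNAs. Of 6 such substrates 3 were analysed here, and BLOC1S1 was not among them. PDGFRB, 1 of the 3, was at 1.15 to 1.65 CPM (SE of its log2 fold changes 0.22), too low for a small fall to be seen. With each compound 1 of the 3 rose and 0 fell by limma, edgeR or DESeq2. Outside that count HGSNAT, an enzyme of the lysosome, was at −0.18 on the log2 scale with CCF642-34 (limma adjusted p = 0.0804, unadjusted p under 0.05), which passed with library size alone, in the fit of 2 groups and on leaving out CCF642 replicate 1 (0.0478) or CCF642-34 replicate 2 (0.036). The gene that rose was TNFRSF10B, the death receptor DR5, a reported IRE1 decay substrate that PERK signalling is also known to raise, with log2 fold changes of 1.83 and 1.87 (limma adjusted p = 1.04e-27 and 6.7e-28). Of the complex that joins the cut XBP1 exons, 5 of 6 genes were analysed here. RTCB, the ligase itself, had log2 fold changes of 0.07 and −0.01 (limma adjusted p = 0.25 and 0.851). C2orf49, which encodes ashwin, rose by 0.55 and 0.44, and FAM98B fell by 0.34 and 0.24 (limma adjusted p = 4.96e-09, 8.21e-07, 3.01e-06 and 0.000661).

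Of 10 adaptors and regulators of IRE1 analysed here, 4 rose and 4 fell with CCF642 (31.8% and 31.3% of all genes). With CCF642-34, 5 rose and 2 fell (29.7% and 27.9% of all genes). The largest rises were those of BAK1, which binds IRE1 at the ER membrane (0.60 and 0.54), and UFL1, a ligase for the modifier UFM1 (0.56 and 0.59). The largest decreases were those of MAP3K5, the kinase ASK1 downstream of IRE1 (−0.47 and −0.32), and TRAF2, the adaptor that links IRE1 to it (−0.22 and −0.50). All 8 of these changes passed, at a limma adjusted p of at most 0.013. MAP3K5 with CCF642-34 did not pass without DMSO replicate 1 (0.14) or CCF642-34 replicate 2 (0.0746), nor TRAF2 with CCF642 without DMSO replicate 2 (0.113) or CCF642 replicate 2 (0.116).

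Among 6 cofactors of ATF6, 2 rose and 2 fell with CCF642, and 2 rose and 3 fell with CCF642-34. NFYB, a subunit of NF-Y, which binds the CCAAT end of the ER stress element, fell by 0.79 and 0.80 on the log2 scale, and GTF2I, which encodes TFII-I, fell by 0.65 and 0.60. PDIA5, a disulfide isomerase linked to ATF6 activation, rose by 0.25 and 0.28, and NFYC by 0.16 and 0.28. Limma adjusted p-values of these 8 changes were at most 0.0334. With CCF642, library size alone ended the calls of PDIA5 (0.159) and NFYC (0.683), as did leaving out DMSO replicate 2 (0.0883 and 0.237), and NFYC was also lost without DMSO replicate 1 (0.0541), without CCF642 replicate 2 (0.125) and with DESeq2 (0.0723). With CCF642-34, PDIA5 was lost without CCF642-34 replicate 1 (0.0729).

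The site proteases also cut other proteins. A list of 7 genes, called site protease substrates below, held further substrates and proteins that regulate their cutting. Of these 7, 2 rose and 4 fell with CCF642 and 2 rose and 3 fell with CCF642-34. INSIG1, which retains the sterol-regulated factors in the ER, rose by 0.22 and 0.78, and was higher with CCF642-34 by 0.56 (limma adjusted p = 1.58e-16). SREBF2, a sterol-regulated factor cut by both proteases, rose by 0.24 and 0.32 (limma adjusted p = 3.18e-07 and 5.09e-10). SREBF1, the other such factor of the list, fell by 0.16 and 0.13 (limma adjusted p = 0.00177 and 0.0082). With CCF642-34 the call of SREBF1 was lost without DMSO replicate 2 (log2 fold change −0.12) and without CCF642-34 replicate 2 (−0.10). GNPTAB, a precursor cut by the site-1 protease, fell by 0.22 and 0.14 (limma adjusted p = 4.17e-06 and 0.00187), and SCAP, the escort of the sterol-regulated factors, by 0.13 and 0.17 (limma adjusted p = 0.0267 and 0.0052). The call of SCAP was lost with CCF642 without DMSO replicate 1 (0.157), DMSO replicate 2 (0.0883) or CCF642 replicate 1 (0.095) and with DESeq2 (0.054), and with CCF642-34 without DMSO replicate 1 (0.0644). SPRING1, listed as C12orf49 and a cofactor of the site-1 protease, fell by 0.28 with CCF642 (limma adjusted p = 0.000503), had a log2 fold change of 0.14 with CCF642-34 (limma adjusted p = 0.0789, under 0.05 without either CCF642 replicate or CCF642-34 replicate 1), and was higher with CCF642-34 than with CCF642 by 0.42 (limma adjusted p = 4.4e-06).

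Of the other CREB3 relatives and regulators, 4 of 6 were analysed here. CREBRF, which promotes the loss of CREB3 protein, rose by 1.16 and 0.90 (limma adjusted p = 1.83e-22 and 3.91e-18), CREB3L4 fell by 0.41 and 0.37 (limma adjusted p = 0.00667 and 0.0158), and HCFC1, a partner of CREB3, fell by 0.22 with CCF642-34 (limma adjusted p = 2.25e-05). CREB3L4, at 6.82 to 11.5 CPM, did not pass with CCF642 without DMSO replicate 1 (0.0653) or CCF642 replicate 2 (0.072), nor with CCF642-34 without DMSO replicate 1 (0.113) or either CCF642-34 replicate (0.0715 and 0.0619). Among 6 genes of ER calcium handling, 2 rose and 1 fell with CCF642 and 3 rose and 3 fell with CCF642-34. ITPR1, a calcium release channel, rose by 0.48 and 0.76 (limma adjusted p = 0.00378 and 1.71e-05; 0.108 with CCF642 without CCF642 replicate 2), and the pump ATP2A3 fell by 0.35 and 0.34 (limma adjusted p = 6.38e-11 and 1.05e-10).

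The 27 promoters with the ER stress element belong to 25 gene symbols, of which 16 were measured, XBP1 included. This set was chosen after the data were seen. Some of its genes, such as HSPA5 and CALR, were already counted in the lists above, so its counts are not independent of theirs. Over all genes 31.8% rose and 31.3% fell with CCF642, and 29.7% and 27.9% with CCF642-34. With CCF642, 10 rose and 1 fell, and with CCF642-34, 10 rose and 0 fell by limma, edgeR or DESeq2 (1 was lower at an unadjusted p under 0.05), with medians of 0.33 and 0.33 beside −0.01 and 0.01 over all genes. FICD, an enzyme that modifies BiP, had the largest rise after both compounds, 2.82-fold with CCF642 and 1.43 on the log2 scale with CCF642-34 (limma adjusted p = 4.02e-21 and 3.13e-20). With library size alone the counts were 9 and 2 with CCF642 and 9 and 1 with CCF642-34. XBP1, with log2 fold changes of 0.16 and 0.04, lay below the median of the set.

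For 3 of the 4 genes with the largest changes against DMSO, the genes whose scaled values followed them most closely over the 6 libraries were looked up among 8421 genes with a mean of at least 10 CPM. The 3 most like ERN1 were SLC7A1, RAP2B and DUSP8, and 309 genes had a Pearson correlation with ERN1 above 0.99. CREB3L2 was followed by MTHFD2, MED17 and SARS, and MBTPS2 by SNX18, RBFA and LAMP1. The counts above 0.99 were 275 and 37 genes. The libraries fall into 3 groups and share their scaling, so these correlations mostly restate the order of the group means. Between members the correlation was 0.997 for ERN1 with CREB3L2 and −0.897 for MBTPS1 with MBTPS2.

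**Figure D5:**
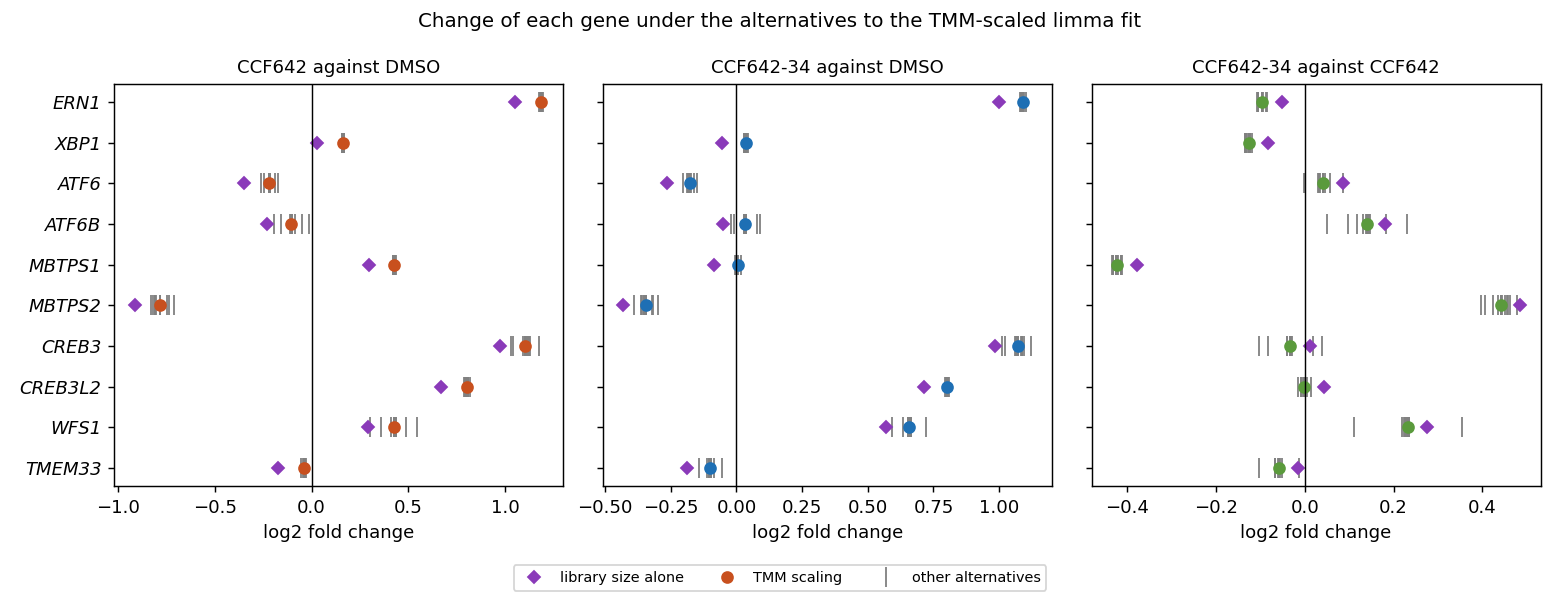
Log2 fold change (horizontal axes, different ranges) of each gene in 3 comparisons under the TMM-scaled fit (circles), with library size alone (diamonds) and under the other alternatives, including fits without 1 library (ticks). Library size alone shifts all genes against DMSO to the left, by which XBP1 lies near 0 with CCF642 at 0.03.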

How the data were processed

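The authors deposited CPM values for 11048 gene symbols in each of 6 libraries. The unit was read from the values, and the submitters' processing notes name STAR, edgeR 3.24.3, limma 3.38.3 and hg19 without their roles. The counting tool, annotation and use of strand are not given in the sources used here. Low genes had been left out, since the lowest maximum of a gene was 1.50 CPM. Gene positions come from GRCh38 and were not used for counting.

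CPM were scaled by TMM (edgeR 4.0.16), 1 was added, and limma (3.58.1, R 4.3.3) was fitted on log2 values of all 3 groups with trended variance (3 residual and 42.9 prior degrees of freedom). Tests were two-sided, with Benjamini-Hochberg adjustment over all genes. All values (100%, tolerance 0.01) were whole multiples of 1 read, whose size in the CCF642-34 libraries had to be taken from the smallest gap between values. On those reads edgeR's quasi-likelihood test called 6932, 6440 and 3724 genes (CCF642, CCF642-34, direct) and DESeq2 (1.42.0) 6212, 5649 and 2840. Scripts were tested on simulated data.

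The 10 genes and the lists were chosen with earlier results of these data known. All 10 are named, with the 2 largest increases and decreases per list and compound, the third sensor EIF2AK3, and the 3 genes most like each of 4 members, though not every gene of this rule appears and the genes most like CREB3 are not reported here. Other names (JCHAIN, SDC1, IRF4, CD3E, HBB, COL1A1, RTCB, CALR, PDIA4, SEC61B, SSR1, SSR3, TRAM1, HGSNAT, PDGFRB, SREBF1, FICD and overlapping genes) were chosen after their values were seen. Alternatives were other scaling, pseudocounts of 0.25 and 4, a minimum mean of 5 CPM, a replicate block, fits of 2 groups, count tests and fits without each library. A combined table, whose 6 columns equal the single files, was left out.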

Additional observations from a re-analysis of the deposited data

How the results depend on the processing

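Over the alternatives, 420 of 450 log2 fold changes of the 10 genes kept their call and sign, 10 lost the call, 4 gained one and 16 took the opposite sign, the last all for values that had not passed. Library size alone, which assumes equal totals where TMM assumes most genes equal, left 1 gene at least 2-fold apart from DMSO with each compound (ERN1), in place of 2. It ended the calls of XBP1 with CCF642 (0.0284) and of ERN1 between compounds (−0.0521), and made TMEM33 pass with CCF642 (−0.1729) and CCF642-34 (−0.1879). It turned the sign with CCF642-34 of XBP1 (−0.0533), ATF6B (−0.0497) and MBTPS1 (−0.0846), and between compounds of CREB3 (0.0116) and CREB3L2 (0.0434). DESeq2's size factors and DESeq2 on reads gave −0.0015 and −0.0014 for MBTPS1 with CCF642-34. Fits of only the 2 groups gave −0.1022 for TMEM33 with CCF642-34 (passing), and between compounds −0.094 for ERN1 (not passing) and 0.0015 for CREB3L2.

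A group left with 1 library is assumed to vary like the others. Without 1 library each, log2 fold changes with CCF642-34 ranged for ATF6B from −0.0203 to 0.0894, for MBTPS1 from −0.0049 to 0.0157 and for TMEM33 from −0.1424 to −0.0534. Between compounds they ranged for ERN1 from −0.1068 to −0.084, for ATF6 from −0.0012 to 0.0853, for CREB3 from −0.1029 to 0.0383, for CREB3L2 from −0.016 to 0.0141 and for WFS1 from 0.1098 to 0.3543. Members higher between compounds numbered 1 to 2.

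Of the lists, IRE1 decay substrates called with CCF642-34 numbered 2 with library size alone and in the fit of 2 groups, and 1 to 2 without 1 library. With library size alone, calls between compounds were 0 of the ATF6 cofactors, 4 of the site protease substrates and 1 of the other CREB3 relatives. Without 1 library, calls between compounds ranged from 2 to 7 for XBP1s targets, 2 to 4 for IRE1 adaptors, 0 to 1 for ATF6 cofactors, 2 to 4 for site protease substrates and 1 to 3 for other CREB3 relatives, and with CCF642 from 1 to 2 for the latter. The causes were not tested.

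The labels do not say whether the replicate numbers pair the libraries. Over 8422 genes, deviations from the group means correlated at −0.052 between DMSO and CCF642, −0.108 between DMSO and CCF642-34 and 0.143 between the compounds. With only 2 libraries per group, these values cannot decide whether the libraries are paired. A replicate block called 7011, 6422 and 3806 genes in place of 6974, 6364 and 3688, and of the member calls changed only that of ERN1 between compounds (−0.0965, adjusted p = 0.0567). A crossed block, added after seeing the data, called 7146, 6578 and 4052.

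Counts of all genes at least 2-fold apart depended on the scale: 717 with CCF642, 429 with CCF642-34 and 34 between compounds became 470, 255 and 21 with a pseudocount of 4. Between compounds they were 73 with a pseudocount of 0.25, 21 with a minimum of 5 CPM, 114 with edgeR and 101 with DESeq2, and with CCF642-34 edgeR gave 668 and DESeq2 652. Depth limited most the values of ATF6B, with 265 to 452 reads.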
